A study of Mus musculus with 20 samples.

Results

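The genes for the proteins of the cytosolic ribosome were followed across 2 fat depots and 2 genotypes. Members were taken by name, as every symbol made of Rpl or Rps, a number and at most a short suffix, together with Rplp0, Rplp1, Rplp2 and Rpsa. Kinases of the Rps6k family and rows for repeated copies of a gene were left out. The rule found 85 of the 25219 genes in the table, of which 33 encode proteins of the small (40S) subunit and 52 proteins of the large (60S) subunit. No measured value entered the rule.

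Every library came from a male mouse with floxed alleles of α4 (Igbp1), a binding partner of the catalytic subunit of the phosphatase PP2A, on a mixed C57Bl/6 background. KO mice (Ai-α4KO) also carried Adiponectin-CreERT2, a tamoxifen-inducible Cre driven by a promoter active in fat cells. Control mice, labelled WT in the deposited records, carried the floxed alleles without Cre. Both genotypes received tamoxifen at 100 mg/kg, 5 injections over 6 days from the age of 2 months, and RNA was taken 1 week after recombination. Inguinal white (iWAT) and brown (BAT) fat gave 5 Control and 5 KO libraries each. The labels do not say whether both depots came from the same mice. RNA came from whole tissue, while Cre was driven in adipocytes, and fewer cells of a type and less RNA per cell cannot be told apart.

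A ribosome holds one copy of nearly every ribosomal protein, and the genes for these proteins are among the most strongly expressed in any cell. Their mRNAs begin with a terminal oligopyrimidine (TOP) tract, a C followed by a short run of pyrimidines, through which the kinase mTOR and the repressor LARP1 adjust their translation. One member, Rps6, is also the substrate of the S6 kinases. A few members have paralogs (names ending in l, or l1) that can take the place of the usual protein in particular tissues or states.

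The libraries held 24023371 to 50384446 gene counts. The targeted gene, Igbp1, lay at 57.5 to 76.6 CPM (counts scaled to library size by the trimmed mean of M-values, TMM) in Control iWAT and at 10.1 to 11.1 in KO iWAT, and at 85.4 to 105 in Control BAT and 13.7 to 25.2 in KO BAT. The summed brown fat markers (5 genes, among them Ucp1 and Cidea) stood at 7177 to 11177 CPM in Control BAT and at 87.5 to 803 CPM in Control iWAT. Control iWAT replicates 1 and 4 held B cell markers at 477 and 189 CPM in sum (6 of 8 listed genes in the table), against 5.90 to 7.86 in the other 3 Control iWAT libraries. Their T cell markers (6 genes) stood at 220.1 and 238 CPM, against 7.91 to 10.7. The iWAT counts of members that passed, and the named members whose call was lost, are also given without these 2 libraries, which was not done for the other gene lists.

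The promoter table of RefSeq (GRCm38.p6, the same assembly as the mm10 build of the counts) had an entry for 63 of the 85 members. The stretch from 15 bases before to 15 bases after the annotated start is shown for members that the results below turn on, with the longest pyrimidine run that opens with C within 10 bases of that start in capitals. The first 5 were higher in KO BAT, and the last 3 are a paralog pair and a further paralog described below.
Rpl38 (chr11:114668565-114668594, plus strand): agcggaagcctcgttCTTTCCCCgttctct
Rpl39 (chrX:37085208-37085237, minus strand): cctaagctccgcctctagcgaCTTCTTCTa
Rpl35a (chr16:33056467-33056496, plus strand): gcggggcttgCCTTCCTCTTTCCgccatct
Rpl36a (chrX:134585639-134585668, plus strand): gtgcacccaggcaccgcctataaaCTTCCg
Rps6 (chr4:86857353-86857382, minus strand): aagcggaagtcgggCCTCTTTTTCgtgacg
Rpl22 (chr4:152324421-152324450, plus strand): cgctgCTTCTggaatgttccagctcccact
Rpl22l1 (chr3:28805493-28805522, plus strand): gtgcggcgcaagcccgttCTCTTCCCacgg
Rpl39l (chr16:10170213-10170242, plus strand): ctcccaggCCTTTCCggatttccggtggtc
A run of at least 5 pyrimidines opening with C lay within 10 bases of the annotated start in 39 of the 63 members (61.9%), against 34.3% of 26961 other genes with an entry. A C at the annotated start followed by at least 4 pyrimidines, whether or not the run began further upstream, was found in 20.6% and 2.97%. The sequence CCGGAAGT, on either strand between 250 bases before and 50 bases after the start, was found in 12 of 63 members (19%) and in 4.27% of the other genes, and CACGTG in 9.52% and 8.09%. The 38 tested members with a run near the start had a median log2 fold change (KO over Control) of 0.39 in iWAT and 0.47 in BAT, and the 24 without had 0.41 and 0.51.

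The ribosomal protein mRNAs had a larger mean share of the transcriptome in KO fat of both depots. Summed over the 85 members, they made up 4.12%, 2.88%, 3.17%, 3.74% and 2.30% of all gene counts in Control iWAT replicates 1 to 5, and 4.36%, 5.08%, 4.79%, 4.04% and 4.70% in KO iWAT. The groups overlapped by the pair of Control replicate 1 and KO replicate 4. In BAT the shares were 3.08%, 2.58%, 2.24%, 2.86% and 2.40% in Control and 4.38%, 4.13%, 4.56%, 3.997% and 4.71% in KO, with no overlap. The group means were 3.24% ± 0.71 and 4.59% ± 0.40 in iWAT (SD, n = 5), a ratio of 1.42, and 2.63% ± 0.34 and 4.35% ± 0.29 in BAT (SD, n = 5), a ratio of 1.65. The highest shares among Control iWAT libraries belonged to replicates 1 and 4, the libraries rich in lymphocyte markers. Without them the Control mean was 2.78% ± 0.44 (SD, n = 3) and the iWAT ratio 1.65. No p is given for a sum over chosen members.

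**Figure D1:**
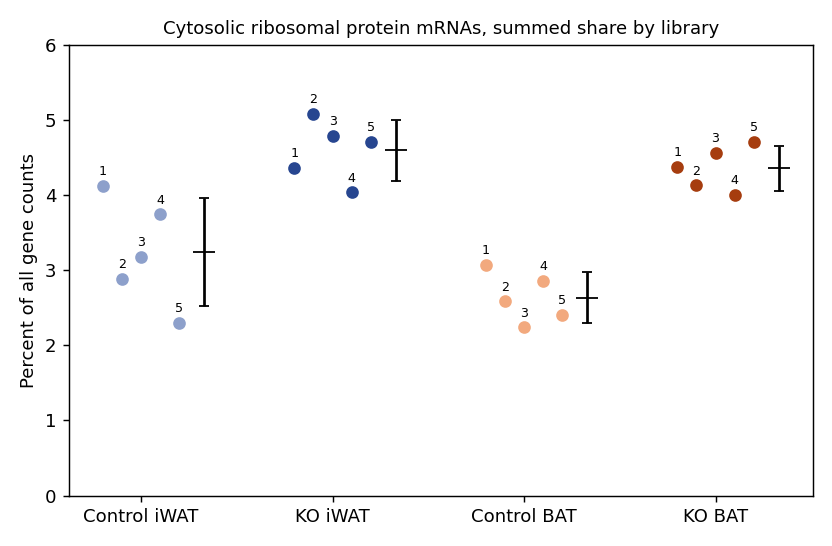
Summed counts of the 85 cytosolic ribosomal protein genes as a percent of all gene counts in each of the 20 libraries (points, numbered by replicate), with the mean ± SD of each group of 5 beside them. KO libraries lay at 3.997 to 5.08% in both depots, Control BAT at 2.24 to 3.08%, and Control iWAT spread from 2.30 to 4.12%.

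The first question was whether loss of α4 in adipocytes moved these mRNAs in white fat. In iWAT 84 members had enough counts to be tested and 75 of them had a higher mean in KO. The median log2 fold change was 0.39, against 0.01 over all 14604 genes tested. By edgeR's quasi-likelihood test with a Benjamini-Hochberg adjusted p below 0.01, 15 members (17.9%) were higher in KO, 6 of the small and 9 of the large subunit. That share is close to the 21.5% of all tested genes that passed in this direction, so the number passing does not set the members apart. Only Rpl22 (1 of 84, 1.19%) was lower, where 18.8% of all genes were. Of the 84 members tested, 2 (2.38%), Rps27a and Rpl39l, passed with a fold of at least 2, against 11.3% of all genes. They were 13.3% of the members that passed as higher, where the same share over all genes was 52.7%. All 5 KO libraries lay above all 5 Control libraries for 13 members (20.7% of all genes) and below them for 1 (18.3%).

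Rps27a, which is made as a fusion with ubiquitin and yields a small-subunit protein after cleavage, showed the largest iWAT difference of the members that passed other than the paralog Rpl39l. Its level was 405, 373, 425, 567 and 242 CPM in Control iWAT replicates 1 to 5 and 474, 935, 1038, 720.4 and 969 CPM in KO iWAT. Only KO replicate 1 fell within the Control range, and the log2 fold change was 1.03 ± 0.25 (SE), adjusted p = 0.00465. The call was lost in 7 of 25 alternative settings, the replicate block and the fits without Control replicate 1, 2 or 3 or KO replicate 2, 3 or 5, with log2 fold changes of 0.90 to 1.23 and adjusted p up to 0.0171 over all 25. Rpl26, a large-subunit protein also known for binding p53 mRNA, stood at 31.2, 29.1, 40.6, 32.3 and 32.6 CPM in Control iWAT and 60.8, 64.9, 55.7, 49.99 and 65.00 CPM in KO iWAT. Every KO library exceeded every Control library (0.83 ± 0.11 (SE), adjusted p = 0.000109), the lowest adjusted p of any member in this depot. Rps3a1, the most abundant member per length, stood at 1042, 935, 971, 1168 and 689.9 CPM in Control iWAT and 1268, 1709.5, 1715, 1394 and 1694 CPM in KO iWAT, again without overlap (0.69 ± 0.15 (SE), adjusted p = 0.00279). Other iWAT members that passed at a log2 fold change over 0.5 included Rps15a, Rpl36al, Rpl35, Rpl32, Rps26, Rpl5, Rps18, Rpl30 and the paralog Rpl39l, between 0.54 for Rpl30 and 1.41 for Rpl39l. Rpl10 (0.49) and Rpl7l1 (0.45) passed with smaller values.

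Several members had large mean differences in iWAT that did not pass. Rpl38, a large-subunit protein known for its part in translating Hox mRNAs, stood at 61.4, 61.7, 61.7, 97.6 and 31.4 CPM in Control iWAT and 49.8, 107, 178, 108 and 172 CPM in KO iWAT (0.96 ± 0.35 (SE), adjusted p = 0.0361). KO replicate 1 lay inside the Control range while replicates 3 and 5 stood above 170 CPM. Rpl39, a very short protein of the exit tunnel, stood at 118, 144, 146, 221 and 92.6 CPM and 118, 248, 428, 268 and 402 CPM in the same groups (1.01 ± 0.33 (SE), adjusted p = 0.0218). Rps28 (0.96 ± 0.37 (SE), adjusted p = 0.0476), Rps29 (0.89 ± 0.34 (SE), adjusted p = 0.046) and Rpl35a (0.86 ± 0.33 (SE), adjusted p = 0.0455) had the same kind of spread, with KO replicate 1 in the Control range for all 3. The number of iWAT members that passed hung on single libraries: it was 26 without KO replicate 1, 4 without KO replicate 2 or 3 or Control replicate 2, and 6 to 8 without KO replicate 5 or Control replicates 3 or 5. The number of all genes higher, 3140 with every library, was 3472 without KO replicate 1 and 2498 to 2785 without each of the other 6 libraries named. Without Control replicates 1 and 4, 15 members and 2706 of all genes were higher, although Rpl39l (1.12, adjusted p = 0.0340), Rpl7l1 (0.35, 0.0147), Rpl36al (0.67, 0.0131) and Rpl10 (0.48, 0.0195) then did not pass, and the iWAT median log2 fold change was 0.50, with -0.004 over all genes.

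In BAT more members passed. Of 84 members tested, 72 had a higher mean in KO, and 47 (56.0%) passed the test in that direction, 19 of the small and 28 of the large subunit, against 25.0% of all 14344 genes tested. One member, Rpl36, was lower (1.19%), against 24.8% of all genes. The median log2 fold change was 0.49, against -0.03 over all genes. Of the 84 tested, 8 (9.52%) passed with a fold of at least 2, against 18.2% of all genes. They were 17.0% of the members that passed as higher, where the same share over all genes was 73.0%. The number past 2-fold moved with the processing. It was 18 with library sizes alone and 20 with each of the limma fits, on log2(FPKM + 1) and log2(FPKM + 0.1), where the median over members was 0.76 each time and the median of all genes 0.23, 0.15 and 0.21. KO libraries lay wholly above Control libraries for 50 members (24.7% of all genes) and wholly below for 0 (23.0% of all genes). Leaving out any 1 of the 10 BAT libraries gave between 35 and 48 members that passed as higher. With a score of muscle markers, which were higher in KO BAT as given below, as a covariate, 25 members passed as higher and the median was 0.58, while 1957 genes in all passed as higher in place of 3582.

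The core genes with the largest rises in BAT included Rpl39, Rps28 and Rpl38, whose levels were scattered in KO iWAT. Rpl39 stood at 142, 154, 115, 127 and 118 CPM in Control BAT replicates 1 to 5 and at 258, 235, 684, 324 and 460.2 CPM in KO BAT. All KO libraries were above all Control libraries, KO replicate 3 by the widest margin, and the log2 fold change was 1.55 ± 0.27 (SE), adjusted p = 0.000358. Rps28, a protein of the small subunit, stood at 58.5, 43.6, 36.2, 52.2 and 38.98 CPM in Control BAT and 97.5, 81.7, 189, 105 and 170.4 CPM in KO BAT (1.46 ± 0.24 (SE), adjusted p = 0.000258). Rpl38 stood at 77.7, 68.2, 51.03, 68.3 and 53.04 CPM and 122, 109.6, 275, 147 and 217 CPM (1.42 ± 0.25 (SE), adjusted p = 0.000377). These genes shared the order of KO libraries, with replicate 3 highest, replicate 5 next and replicate 2 lowest. Rps27a stood at 392, 358, 286, 339.5 and 299 CPM in Control BAT and 718, 708, 1127, 812 and 912 CPM in KO BAT (1.32 ± 0.16 (SE), adjusted p = 1.91e-05). Rpl35a (1.20) and Rps29 (1.15) were the other core members past 2-fold in BAT, where the paralogs Rpl22l1 and Rpl3l completed the 8. Rpl36a, at 1.99-fold, lay just under that limit.

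Rpl36, a large-subunit protein, went the other way. It stood at 251, 222, 180.4, 229.7 and 184 CPM in Control BAT and 141, 129.7, 167, 156 and 182 CPM in KO BAT. The ranges touched, with KO replicate 5 above the lowest Control library, and the log2 fold change was -0.49 ± 0.13 (SE), adjusted p = 0.00664. In iWAT its Control libraries ranged from 104 to 177 CPM and its KO libraries from 117 to 131 CPM (-0.31 ± 0.14 (SE), adjusted p = 0.0913). Set against the median member of the same library on the log2 scale, Rpl36 stood at -0.68 ± 0.07 in Control BAT and -1.67 ± 0.12 in KO BAT, and at -1.32 ± 0.09 in Control iWAT and -1.97 ± 0.13 in KO iWAT (SD, n = 5 each), without overlap in either depot. That was not particular to Rpl36: Rpl28, Rplp2 and Rpl23a were also lower without overlap on this scale in both depots. Many other members did not overlap in BAT, in either direction. Rps15 (-0.18 ± 0.20 (SE) in iWAT and -0.05 ± 0.14 (SE) in BAT) and Rpl19 (0.27 ± 0.14 (SE) and -0.14 ± 0.12 (SE)), also among the members with the lowest values, did not pass. The BAT call of Rpl36 was lost in 13 of 24 alternative settings, 6 of them without 1 library (Control or KO replicate 1, 2 or 4).

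**Figure D2:**
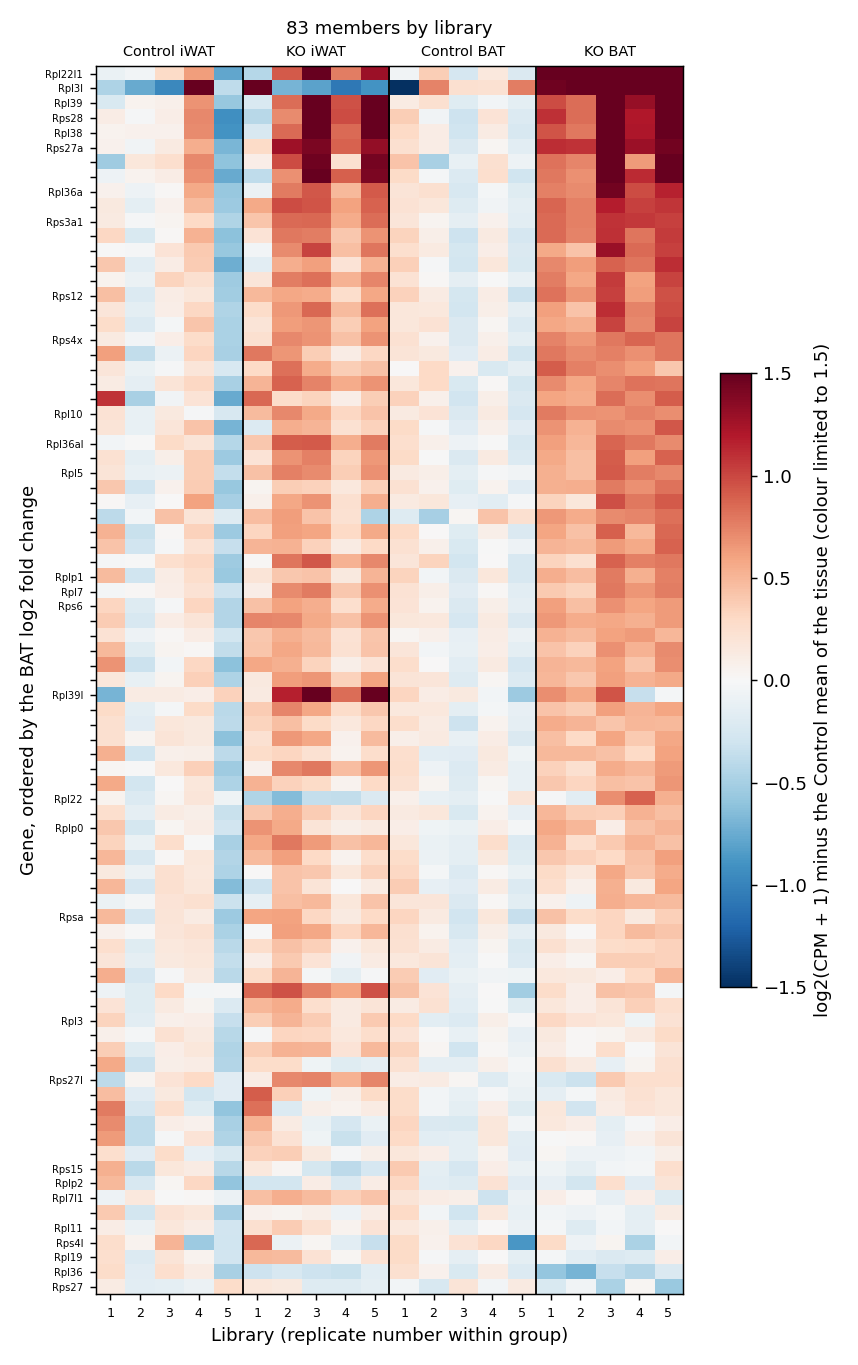
Level of 83 of the tested members in the 20 libraries, with names for those chosen by the naming rule, as log2(CPM + 1) minus the Control mean of the same tissue (colour, limited to 1.5), ordered by the BAT log2 fold change. KO BAT columns are red for most rows, KO iWAT replicate 1 stays near its Control mean or below it for Rpl39, Rps28 and Rpl38, and Control iWAT replicates 4 and 5 lie on opposite sides of their group mean in many rows.

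The proteins of the stalk and those with roles outside the ribosome differed among themselves in their values. Of the 3 stalk proteins, which recruit elongation factors, Rplp1 passed in BAT (0.57 ± 0.14 (SE), adjusted p = 0.00387), Rplp0 just missed the threshold there (0.40 ± 0.12 (SE), adjusted p = 0.0114) and Rplp2 had values of -0.16 ± 0.20 (SE) in iWAT and -0.06 ± 0.16 (SE) in BAT. The BAT call of Rplp1 was lost in 6 of 24 settings (adjusted p up to 0.0178), the replicate block and the fits without Control replicate 2, 3 or 5 or KO replicate 3 or 5. Rpl5 and Rpl11 form with 5S rRNA the particle that binds Mdm2 when ribosome assembly fails. Rpl5 stood at 472, 456, 386, 423 and 412 CPM in Control BAT and 621, 584, 812, 730.0 and 706 CPM in KO BAT, without overlap (0.65 ± 0.12 (SE), adjusted p = 0.000663), and it passed in iWAT too (0.57 ± 0.15 (SE), adjusted p = 0.00721). That iWAT call was lost in 8 of 25 alternative settings (adjusted p up to 0.0282), 6 of them without 1 library (Control or KO replicate 2, 3 or 5). Rpl11 stood at 573, 539, 463, 518 and 482 CPM in Control BAT and 503, 450.4, 499.1, 468 and 514 CPM in KO BAT, ranges that overlapped (-0.12 ± 0.10 (SE), adjusted p = 0.35). Rps6, the S6 kinase substrate, stood at 570.0, 513, 426, 526 and 451 CPM in Control BAT and 758, 677, 797, 745 and 773 CPM in KO BAT (0.56 ± 0.12 (SE), adjusted p = 0.00118). In iWAT its difference did not pass (0.45 ± 0.16 (SE), adjusted p = 0.0308). Rpsa, the laminin receptor protein of the small subunit, passed in neither depot (0.35 ± 0.19 (SE) and 0.25 ± 0.15 (SE)). Of these 7 genes and Rps27a, 2 (25%) passed as higher in iWAT, near the 21.5% of all genes, and 4 (50%) in BAT, against 25.0%, and 0 as lower.

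The 5 members of highest mean level per length were Rps3a1, Rps12, Rplp1, Rpl7 and Rps4x. Rps3a1 rose from 637 ± 69.3 FPKM (fragments scaled to transcript length and library size) in Control BAT to 1446 ± 87.6 in KO BAT (SD, n = 5), and from 918 ± 189 in Control iWAT to 1615 ± 203 in KO iWAT. By the count test its log2 fold change in BAT was 0.92 ± 0.12 (SE), adjusted p = 4.46e-05. Rps12 (0.77 ± 0.15 (SE), adjusted p = 0.000861), Rpl7 (0.56 ± 0.14 (SE), adjusted p = 0.00398) and Rps4x (0.73 ± 0.12 (SE), adjusted p = 0.000201) also passed in BAT, and of the 5 only Rps3a1 passed in iWAT, where Rpl7 had an adjusted p of 0.0101 and Rps4x one of 0.0121. The BAT call of Rpl7 was lost in 7 of 24 settings (adjusted p up to 0.0426), 5 of them without 1 library (Control replicate 3, 4 or 5 or KO replicate 3 or 5). The mean FPKM over the 20 libraries ran from 1154 for Rps3a1 down to 5.94 for Rpl39l, 1.71 for Rps27 and 0 for Rpl10l.

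Of the 8 paralogs, 7 were tested and 3 (42.9%) passed as higher in each depot. Of their 8 partners 1 (12.5%) passed as higher in iWAT and 5 (62.5%) in BAT, where 21.5% and 25.0% of all genes did. Rpl22 and Rpl22l1 encode interchangeable large-subunit proteins, and the former is known to restrain the mRNA of the latter. In iWAT, Rpl22 stood at 45.5, 38.00, 44.9, 49.9 and 41.9 CPM in Control and 31.9, 27.5, 33.9, 33.6 and 37.6 CPM in KO, with every KO library below every Control library (-0.43 ± 0.11 (SE), adjusted p = 0.00518). The call was lost in 10 of 25 settings (adjusted p up to 0.0440), 4 of them without 1 library (Control replicate 4 or KO replicate 2, 3 or 4). The value without Control iWAT replicates 1 and 4 was -0.42 (adjusted p = 0.0151), and the call was lost in 10 of 25 alternative settings. In BAT it stood at 27.5, 24.1, 23.5, 26.03 and 30.02 CPM in Control and 25.8, 23.3, 42.8, 49.1 and 38.3 CPM in KO, where KO replicates 3 to 5 were above the Control range and replicates 1 and 2 were not (0.42 ± 0.20 (SE), adjusted p = 0.0862). Rpl22l1 had the largest rise of any member in BAT, from 19.7, 26.7, 17.04, 22.96 and 17.5 CPM in Control to 64.6, 70.5, 202, 103 and 117 CPM in KO (2.39 ± 0.30 (SE), adjusted p = 2.37e-05). In iWAT its values were 36.9, 38.4, 48.5, 61.3 and 22.6 CPM in Control and 28.97, 75.4, 119, 68.01 and 97.8 CPM in KO, with KO replicate 1 within the Control range (0.90 ± 0.35 (SE), adjusted p = 0.0453). By FPKM, Rpl22l1 stood above Rpl22 in every library. The ratio of the FPKM of Rpl22l1 to that of Rpl22 was 2.82 to 6.43 in Control iWAT and 4.76 to 18.4 in KO iWAT. In BAT it was 3.06 to 5.795 in Control and 10.98 to 24.6 in KO. The ratio depends on the listed transcript lengths, 477 bases for Rpl22l1 and 2497 for Rpl22. In CPM, Rpl22 was the higher in Control iWAT replicate 1 (45.5 against 36.9) and the lower in replicate 4 (49.9 against 61.3). The mean FPKM of Rpl22, 12.5, was among the lowest of the members, and the cause was not tested. Which form is the major one is therefore uncertain.

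Rpl3l, the form of Rpl3 found in striated muscle, was measured at 3.05, 25.9, 17.9, 17.7 and 26.2 CPM in Control BAT and 43.1, 49.5, 95.3, 157 and 93.2 CPM in KO BAT (2.24 ± 0.50 (SE), adjusted p = 0.00193). Skeletal muscle markers moved with it. The sum of 8 of them (Acta1, Ckm, Myh4, Myh1, Mylpf, Tnnt3, Tnni2 and Actn3) ran from 882 to 9154 CPM in Control BAT and from 12675 to 41379 CPM in KO BAT, and 6 of the 8 passed as higher. The Control library with the lowest Rpl3l, replicate 1, also had the lowest muscle sum, and KO replicate 4 had the highest of both. With the muscle marker score as a covariate the BAT log2 fold change of Rpl3l was 0.21, which did not pass. The muscle sums did not overlap between the genotypes in BAT, so this fit cannot tell muscle marker level from genotype. In iWAT Rpl3l was below 1 CPM in 8 of 10 libraries and at 11.5 and 9.34 CPM in Control replicate 4 and KO replicate 1, the 2 iWAT libraries with muscle sums of 6870 and 5208 CPM.

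Rpl39l, the form of Rpl39 best known from testis, stood at 1.63, 3.64, 3.64, 3.56 and 4.43 CPM in Control iWAT and 3.69, 8.59, 12.7, 6.64 and 13.4 CPM in KO iWAT (1.41 ± 0.36 (SE), adjusted p = 0.00662). The call was lost in 10 of 25 settings (adjusted p up to 0.0340), 7 of them without 1 library (Control replicate 1, 2, 3 or 4 or KO replicate 2, 3 or 5). It was a small fraction of its partner, at 0.68 to 2.34% of the FPKM of Rpl39 in Control iWAT and 1.21 to 1.695% in KO iWAT. In BAT it did not pass (0.48 ± 0.31 (SE), adjusted p = 0.198). Rpl36al, whose protein is nearly identical to that of Rpl36a, passed in both depots (0.70 ± 0.15 (SE), adjusted p = 0.00255 in iWAT and 0.66 ± 0.12 (SE), adjusted p = 0.00044 in BAT). Rpl36a itself passed in BAT alone (0.996 ± 0.16 (SE), adjusted p = 0.000216), with 0.60 ± 0.23 (SE), adjusted p = 0.0454 in iWAT. Rpl7l1, a nucleolar relative of Rpl7, stood at 70.3, 82.8, 74.04, 75.1 and 70.1 CPM in Control iWAT and 102, 109, 104, 95.9 and 100.2 CPM in KO iWAT, without overlap (0.45 ± 0.08 (SE), adjusted p = 0.000691), and had a value of -0.06 ± 0.11 (SE) in BAT. Rps27l, a p53 target, had 0.56 ± 0.16 (SE), adjusted p = 0.0119 in iWAT and 0.06 ± 0.15 (SE) in BAT, and Rps4l, with 0.08 ± 0.26 (SE) and -0.13 ± 0.22 (SE), passed in neither. Among the partners, Rpl10 passed in both depots (0.49 ± 0.12 (SE) and 0.67 ± 0.12 (SE)) and Rpl3 in neither (0.34 ± 0.14 (SE) and 0.13 ± 0.13 (SE)). The iWAT call of Rpl10 was lost in 8 of 25 settings (adjusted p up to 0.0195), 5 of them without 1 library (Control replicate 2, 4 or 5 or KO replicate 2 or 3). Rpl10l, a testis form, was listed at an FPKM of 0 on average and was not tested.

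**Figure D3:**
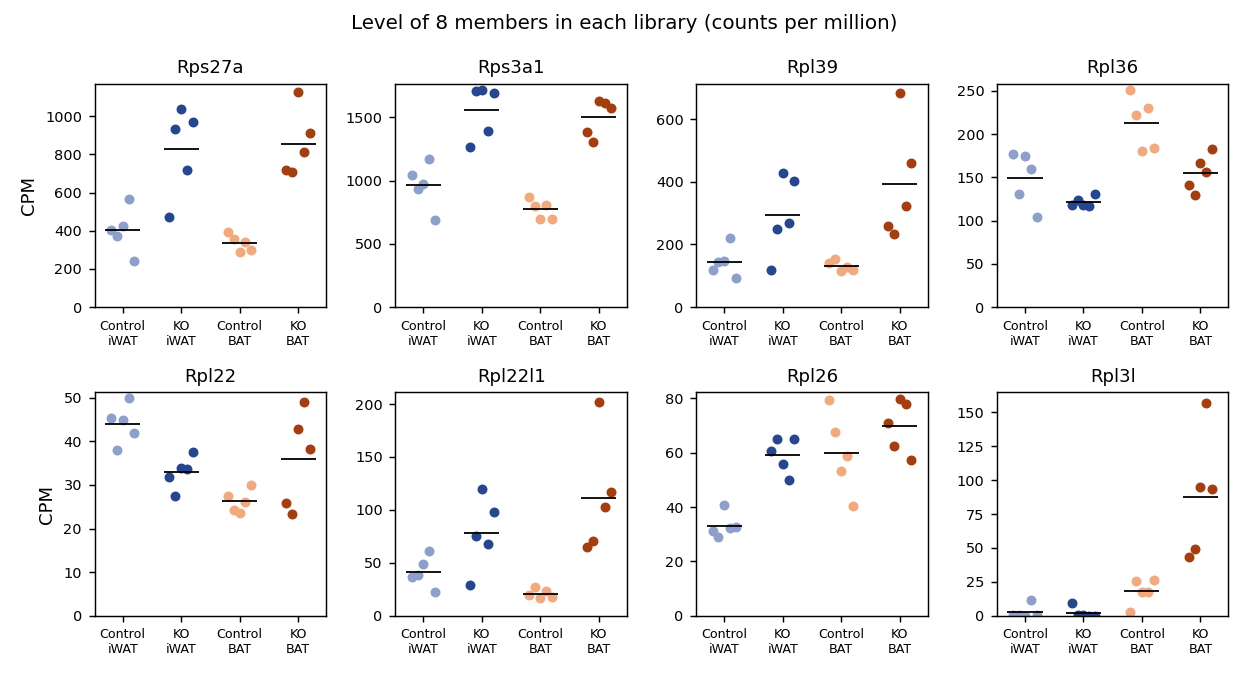
CPM of 8 members in each of the 20 libraries (points, replicates 1 to 5 from left to right within a group), with the group mean as a line. Rps27a, Rps3a1 and Rpl39 stood higher in KO BAT without overlap, Rpl36 lower with a small overlap, Rpl22 lower in KO iWAT, and Rpl3l above 40 CPM only in KO BAT.

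The genotype difference was then compared between depots. Of the 15 members higher in KO iWAT, 11 were also higher in KO BAT, which is 73.3% of the iWAT list and 23.4% of the BAT list. Over all genes tested, 2119 were higher in both depots, 67.5% of the 3140 higher in iWAT and 59.2% of the 3582 higher in BAT. The mean difference was positive in both depots for 69 members and larger in BAT than in iWAT for 58. No count over all genes stands beside these, so they do not set the members apart. The interaction of genotype and tissue, fitted over all 20 libraries, passed for 0 members with edgeR, where 3.26% of 15230 genes passed in the direction of a higher value in BAT and 1.60% in the other. At an unadjusted p below 0.05 there were 6 members, against 4718 of 15230 genes, and DESeq2 called 2, Rpl22 and Rpl22l1, against 10.8% of all genes. The lowest adjusted p of the interaction was 0.0165 for Rpl22 (0.87 ± 0.23 (SE)), followed by 0.0224 for Rpl7l1 (-0.48 ± 0.13 (SE)), 0.0392 for Rpl22l1 (1.51 ± 0.48 (SE)) and 0.0519 for Rpl26 (-0.62 ± 0.21 (SE)). The larger number that passed in BAT was thus not matched by tested differences between depots. The spread between libraries was wider in iWAT, with a median SD over 84 members of 0.34 (log2) in Control iWAT, 0.22 in KO iWAT, 0.20 in Control BAT and 0.16 in KO BAT.

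**Figure D4:**
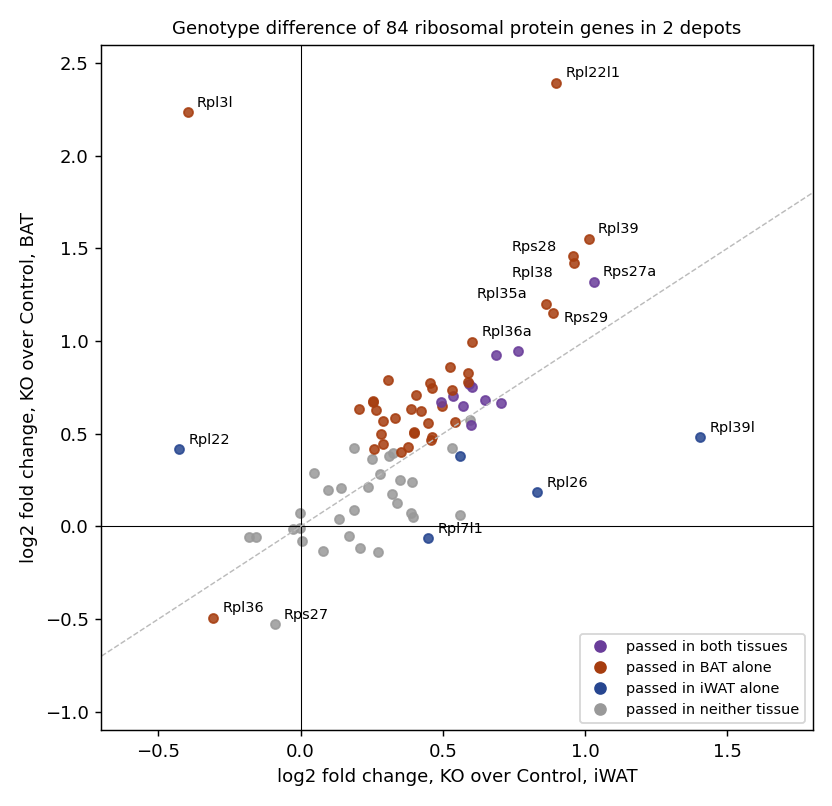
Log2 fold change of KO over Control in iWAT (horizontal) and BAT (vertical) for 84 members, coloured by the depot in which the adjusted p was below 0.01, with the dashed line of equal change. 11 members passed in both depots, 37 in BAT alone, 5 in iWAT alone and 31 in neither. Rpl22l1 and Rpl3l lie farthest above the line, and Rpl39l, Rpl26 and Rpl7l1 below it.

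Between depots of one genotype few members differed. Control BAT differed from Control iWAT in 5 members, with 3 higher (16.4% of 14260 genes) and 2 lower (20.4%), and a median log2 difference of -0.14. Rps27l (0.90 ± 0.13 (SE), adjusted p = 0.000198), Rpl26 (0.82 ± 0.17 (SE), adjusted p = 0.00172) and Rpl7l1 (0.40 ± 0.11 (SE), adjusted p = 0.00802) were higher in BAT. Rpl22l1 (-1.03 ± 0.23 (SE), adjusted p = 0.00302) and Rpl22 (-0.78 ± 0.10 (SE), adjusted p = 0.000109) were lower in BAT. The call of Rpl7l1 held in 3 of the 10 fits that left out 1 library (without Control iWAT replicate 2, or Control BAT replicate 4 or 5, with values of 0.35 to 0.48 over the 10) and in 6 of 15 other settings, and that of Rpl22l1 was lost without Control BAT replicate 5 (-0.95, adjusted p = 0.0106) and in 3 of 15 other settings, one fit of all libraries (0.0197), without Control iWAT replicates 1 and 4 (0.0147) and with the B cell covariate (0.0659). In the last 2 of these the call of Rpl26 was lost as well (0.79 and 0.80, adjusted p = 0.0112 and 0.0273). Without Control iWAT replicates 1 and 4, 3 members passed, Rpl22, Rps27l and Rpl3l, against 31.8% of all genes. Of the KO groups, only Rpl3l was higher in BAT (5.54 ± 1.28 (SE), adjusted p = 0.00657), against 12.2% of 14703 genes, and 0 members were lower, against 8.03% of genes. The call of Rpl3l held in 3 of the 10 fits that left out 1 library (without KO iWAT replicate 1, where the value was 9.22, and without KO BAT replicate 1 or 2) and in neither fit with a marker covariate. The muscle markers summed to 5.43 to 5208 CPM in KO iWAT, below the 12675 to 41379 CPM of KO BAT. The fit with the muscle covariate therefore cannot tell muscle marker level from depot. Rpl26 stood at 79.4, 67.7, 53.3, 58.7 and 40.6 CPM in Control BAT, so its KO iWAT level of 49.99 to 65.0 CPM fell within the range of the brown depot. These comparisons share libraries with the genotype contrasts above.

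The naming rule misses Fau, a fusion that yields a small-subunit protein. It passed as higher in BAT (0.86 ± 0.16 (SE), adjusted p = 0.000616). The genes for the ribosome of mitochondria, which translates the mitochondrial genome, had lower values. Of 77 mitochondrial ribosomal protein genes (Mrpl and Mrps), 0 passed as higher and 38 as lower in iWAT, where 18.8% of all genes were lower, and the median was -0.44 (log2). In BAT 0 passed as higher and 54 as lower, where 24.8% of all genes were lower, with a median of -0.72. Their summed share of counts was 0.368 to 0.452% in Control iWAT and 0.298 to 0.341% in KO iWAT, and 0.607 to 0.729% in Control BAT and 0.405 to 0.511% in KO BAT.

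**Figure D5:**
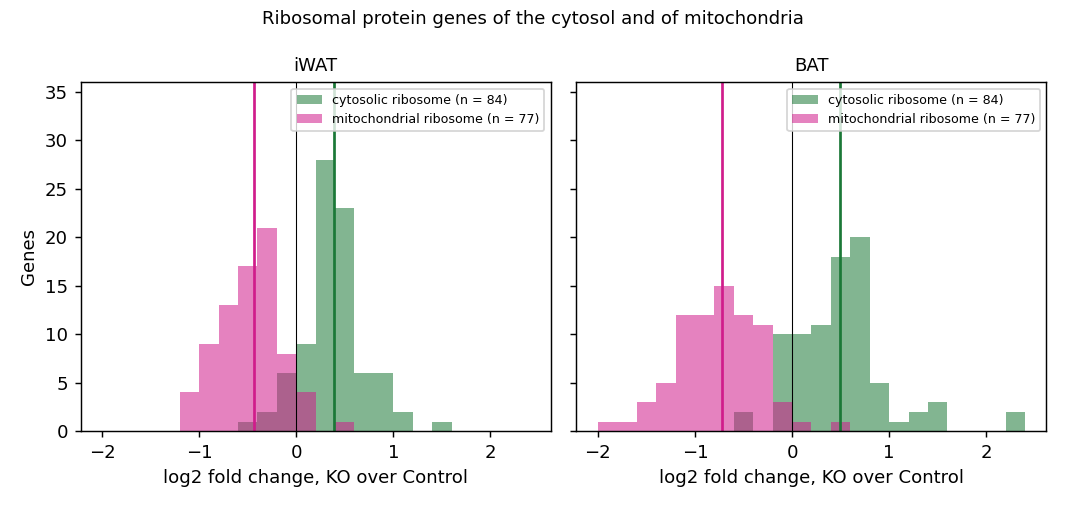
Histograms of the log2 fold change of KO over Control for 84 cytosolic (green) and 77 mitochondrial (pink) ribosomal protein genes in iWAT (left) and BAT (right), in bins of 0.2, with the medians as vertical lines. The medians were 0.39 and -0.44 in iWAT and 0.49 and -0.72 in BAT.

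Genes that act with the ribosomal proteins were counted in lists by function, and their shares stand beside the 21.5% of all genes that passed as higher and 18.8% as lower in iWAT, and the 25.0% and 24.8% in BAT. Of 32 genes for ribosome assembly and rRNA synthesis, 13 (40.6%) passed as higher in KO iWAT and 0 as lower. In KO BAT 12 (37.5%) were higher and 3 (9.38%) lower, with medians of 0.40 and 0.23. Nop58, a core protein of box C/D particles, had the largest rise (1.63 ± 0.18 (SE), adjusted p = 2.55e-05 in iWAT and 1.27 ± 0.18 (SE), adjusted p = 6.63e-05 in BAT), and Nop10, of box H/ACA particles, the largest fall, in BAT (-1.01 ± 0.16 (SE), adjusted p = 0.000163). Of 17 elongation factors and other TOP mRNAs, 6 (35.3%) passed as higher in iWAT and 7 (41.2%) in BAT, and 0 and 2 (11.8%) as lower. Npm1, a nucleolar chaperone, rose in both (1.07 ± 0.12 (SE) and 1.20 ± 0.14 (SE)), while Eif3l was lower in BAT (-0.92 ± 0.11 (SE), adjusted p = 1.55e-05). Of 8 chaperones and assembly or recycling factors of ribosomal proteins and subunits, 3 (37.5%) passed as higher in iWAT and 2 (25%) in BAT, the latter equal to the share of all genes, and Ltv1, which acts in 40S assembly, led in both (0.84 ± 0.12 (SE) and 0.98 ± 0.11 (SE)). Of 6 TOP host genes of small nucleolar RNAs, Gas5 (1.05 and 0.69) was higher in both depots, 1 more was higher in iWAT, and Snhg12 was lower in iWAT (-0.73). Of 10 regulators of TOP mRNA translation, 5 (50%) were lower in iWAT and 6 (60%) in BAT, and 1 (10%) was higher in each. Mtor itself had the largest fall (-1.12 ± 0.12 (SE), adjusted p = 2.03e-05 in iWAT and -1.73 ± 0.13 (SE), adjusted p = 3.71e-07 in BAT), and Eif4e, the cap-binding protein, was the one that rose (0.65 ± 0.11 (SE) and 0.52 ± 0.14 (SE)).

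Markers of other cell types changed beside the members. Of 7 listed macrophage markers 6 were in the table (Cd68, Itgax, Lyz2, Csf1r, Cd14 and Ptprc), and Adgre1 was not. The sum of these 6 was 922 to 1565 CPM in Control iWAT and 5511 to 7233 CPM in KO iWAT, and 185 to 405 CPM in Control BAT and 3452 to 5318 CPM in KO BAT, and all 6 passed as higher in both depots. The 6 proliferation markers passed as higher in both depots as well, at 35.3 to 61.3 and 199 to 369.8 CPM in sum in Control and KO iWAT and at 7.33 to 15.03 and 88.2 to 159 CPM in Control and KO BAT. The 8 adipocyte markers summed to 21269 to 28870 CPM in Control iWAT and 11618 to 16290 CPM in KO iWAT, and to 19845 to 22984 and 12694 to 15224 CPM in BAT, with 7 and 5 of them passing as lower. The 5 neutrophil markers passed as higher for 4 genes in iWAT and 5 in BAT, the 5 endothelial markers as lower in both, and 4 of 5 stromal markers as higher in BAT. The 6 T cell markers summed to 2.81 to 4.93 CPM in Control BAT and 14.55 to 57.7 CPM in KO BAT, where 4 passed as higher. In KO iWAT they summed to 14.8 to 55.01 CPM, within the Control range of 7.91 to 238 CPM, and 0 passed with edgeR, while 3 had an unadjusted p below 0.05 as lower. Of the 6 B cell markers in the table, 1 passed as lower in iWAT, and in BAT 1 of the 3 tested passed as higher. The part of these cells in the ribosomal protein values was not tested.

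The members were also described by transcript length and beside near-identical copies. The 16 members with transcripts under 500 bases had median log2 fold changes of 0.59 in iWAT and 0.68 in BAT, against 0.33 and 0.46 for 49 members from 500 to under 1000 bases and 0.38 and 0.43 for 19 longer ones. Other genes under 500 bases had medians of -0.18 in iWAT (91 genes) and 0.12 in BAT (89 genes). Those from 500 to under 1000 bases had -0.16 and -0.06, and longer ones 0.02 and -0.04. Over the 84 members the Spearman correlation of log2 fold change with transcript length was -0.164 in iWAT and -0.167 in BAT. An effect of length was not tested. Rps27 (-0.09 ± 0.26 (SE) in iWAT and -0.53 ± 0.31 (SE) in BAT) was listed at 0.457 to 1.7 CPM and its copy Rps27rt, which the rule leaves out, at 137 to 591 CPM. Rpl34 was listed at 3.10 to 8.29 CPM and Rpl34-ps1 at 161 to 380 CPM. The counts of all 4 were fractions in every library (tolerance 0.001), so the split of shared reads between a gene and its copy is uncertain. Summed with their copies, they stood at 217 ± 36.5 and 433 ± 131 CPM (Rps27 pair) and 215 ± 26.2 and 329.9 ± 34.5 CPM (Rpl34 pair) in Control and KO BAT (SD, n = 5). In iWAT the same sums were 250.5 ± 101 and 335 ± 110 CPM (Rps27 pair) and 224 ± 44.3 and 305 ± 52.4 CPM (Rpl34 pair) in Control and KO (SD, n = 5). The sums were not tested. Fitted alone, Rps27rt and Rpl34-ps1 passed in BAT (adjusted p = 0.00166 and 0.00104) and did not in iWAT (0.274 and 0.0420).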

How the data were processed

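RNA from iWAT and BAT of Control and KO mice was sequenced as stranded mRNA libraries (2 × 150 bp). Per the labels, reads were demultiplexed with bcl2fastq 2 and aligned with STAR 2.5.3a to mm10. The counting tool was not given in the sources used here. The authors deposited expected counts and FPKM values per gene, and 77.3% of all nonzero counts in the table were whole (tolerance 0.001). Groups came from the labels. Nothing in them says more of how replicates relate, so p-values measure the spread between these libraries.

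Expected counts were rounded, filtered with filterByExpr at its defaults, scaled by TMM and fitted with edgeR 4.0.16 (R 4.3.3) within each comparison, with no covariate. The interaction used all 20 libraries. P-values were adjusted over all genes tested, and a member passed at an adjusted p below 0.01. The 2-fold limit was counted apart. Levels are CPM on one TMM scale for all libraries, and genes were compared with each other by FPKM alone. DESeq2 1.42.0, limma 3.58.1 on log2(FPKM + 1) and other settings were alternatives. The code was tested on simulated data.

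Members and lists were chosen with earlier results of these data known. Named members were the 5 with the largest log2 fold change in each direction in each depot, the paralogs, their partners, the stalk and related proteins, and the 5 of highest mean FPKM. Other members that passed, and Rpl26, Rps28, Rps29, Rpl35a and Rpl36a where outside this rule, were named after their values were seen. Total counts per library ran from 24023371 to 50384446. Some results on single genes are not reported here.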

Additional observations from a re-analysis of the deposited data

Results flagged for a closer look

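In 4 of 124 groups of 5 libraries examined (single members in single groups), one library lay far from the other 4 by Dixon's criterion, where chance gives about 1 in 20. Rpl3l stood at 3.05 CPM in Control BAT replicate 1 and at 17.7 to 26.2 CPM in the other Control BAT libraries. The summed muscle markers of that library were 882 CPM, the lowest of the 5. Rpl39l stood at 1.63 CPM in Control iWAT replicate 1 and at 3.56 to 4.43 CPM in the others. Rps4l stood at 14.3 CPM in Control BAT replicate 5, against 28.1 to 33.4 CPM. Rplp0 stood at 837 CPM in KO BAT replicate 3, against 1057.7 to 1159.4 CPM, while that library had the highest Rpl39, Rps28, Rpl38 and Rps29 of its group.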

How the results depend on the processing

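Among the members chosen by the naming rule, none that passed changed direction under the alternatives run. Of their 1469 values under other settings, 1338 kept their side of the threshold, 77 lost it, 54 gained it and 0 that passed changed sign, while 48 values that had not passed did change sign. In iWAT, 24 members were higher with DESeq2 (of all genes, 3458), 8 with upper-quartile scaling (2710), 39 at an adjusted p below 0.05 (4161), 23 and 25 with limma on log2(FPKM + 1) and log2(FPKM + 0.1) (3825 and 3848), 24 in one fit of all libraries (3384) and 26 with the B cell marker score as a covariate (2885), against 15 and 3140 as reported. The number lower was 0 with library sizes alone, both limma fits, one fit of all libraries, the B cell covariate, and without Control iWAT replicates 1 and 4. The number past 2-fold was 1 with upper-quartile scaling, either marker covariate, the replicate block, and without those 2 libraries. In BAT the number lower was 0 with library sizes alone, upper-quartile scaling, at least 10 counts in every library, both limma fits, the replicate block and the muscle covariate. The number past 2-fold was 18 with library sizes alone and 20 with each limma fit, where the medians were 0.76, 0.76 and 0.76. With the muscle covariate 25 were higher. Library sizes alone moved the median of all genes to 0.13 in iWAT and 0.23 in BAT.

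In percent of all genes tested in brackets, 9 members passed between Control depots at 0.05 (51.4%), 3 without Control iWAT replicates 1 and 4 (31.8%), and 2 with the B cell covariate (19.5%), where the median was 0.19 against -0.14. Between KO depots, 2 passed with DESeq2 (29.8%), 3 at 0.05 (36.7%), and 0 with at least 10 counts (2786 of 13254 genes; Rpl3l is then not tested) or with the B cell (1.32%) or muscle (0.252%) covariate. For the interaction, DESeq2 called 2 (10.8%), an adjusted p below 0.05 called 3 (15.1%), and library sizes alone (4.72%), upper-quartile scaling (5.08%), members left out of the scaling (5.37%), at least 10 counts (6.88%) and limma on log2(FPKM + 0.1) (4.24%) called 1 each. The causes were not tested.

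Leaving out 1 library at a time gave 4 to 26 members higher, 0 to 1 lower and 0 to 7 past 2-fold in iWAT, and 35 to 48, 0 to 1 and 7 to 10 in BAT. It gave 4 to 5 members between Control depots, 0 to 2 between KO depots and 0 to 1 for the interaction. The ratio of summed shares was 1.32 to 1.52 in iWAT and 1.59 to 1.73 in BAT, an alternative chosen after seeing the data. Deviations of same-numbered libraries correlated at -0.451 to 0.134 in iWAT and -0.147 to 0.215 in BAT, and between depots at -0.0808 to 0.221 in Control and -0.265 to 0.244 in KO. Between depots the same-numbered library was the best match for 2 of 5 libraries in each genotype. These values cannot settle whether same-numbered libraries of the 2 depots came from the same mice. With the replicate block 5 members (2843 of all genes) were higher in iWAT. In BAT the call of Rpl36 was lost in 13 of 24 settings, Rpl7 in 7, Rplp1 in 6, Rpl3l in 2, and Rpl38, Rpl39 and Rpl5 in 1 each. In iWAT it was lost in 10 of 25 for Rpl22 and Rpl39l, 8 for Rpl5 and Rpl10, 7 for Rps27a, and 1 each for Rpl36al, Rpl7l1 and Rps3a1.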
